A study of Mus musculus with 3 samples.

Results

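The chains of 3 gene families that build the matrix under endothelial cells and hold the cells to it were followed across 3 RNA-seq libraries of mouse aortic endothelial cells. Members were the protein-coding genes of the deposited count table whose symbols have the form of a collagen chain (Col with a number, a and a number), a laminin chain (Lama, Lamb or Lamc with a number) or an integrin subunit (Itga or Itgb). This pattern found 65 of 18287 listed genes. Of these, 61 are chains of the families, namely 28 collagens, 11 laminins and 22 integrins, and 4 are other proteins with names derived from a chain. The cells were a purchased primary culture of mouse aorta endothelium, and each group had 1 library of polyadenylated RNA. One group is labelled control in its title and treatment entry; a protocol entry repeated for every sample names both agents, control included, and the groups follow the treatment entry of each sample. Another received 5 mU/mL of glucose oxidase over 30 min, which exposes cells to hydrogen peroxide because the enzyme oxidizes glucose in the medium. The last received the same glucose oxidase and, over 24 h, 0.2 mM of ethyl-2-hydroxybenzylamine (Et2HOBA), and is called the Et2HOBA library below. Et2HOBA is a scavenger of isolevuglandins, which are reactive lipid products of oxidation. Which of the 2 agents came first is not given in the labels, and cells given Et2HOBA without glucose oxidase were not analysed here.

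Collagens are secreted or membrane-bound proteins whose 3 chains wind into a triple helix. Laminins are cross-shaped trimers of 1 alpha, 1 beta and 1 gamma chain, and with type IV collagen they form the basement membrane, the thin sheet on which endothelium rests. Integrins are receptors of 1 alpha and 1 beta subunit that span the plasma membrane, bind collagens, laminins, fibronectin or ligands on other cells outside, and bind talin and the actin cytoskeleton inside. In blood vessels the type IV chains Col4a1 and Col4a2 and laminins that hold the alpha 4 or alpha 5 chain are the main basement membrane components.

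Depth over the listed genes was 35969965 reads for control, 35005089 for glucose oxidase and 40212212 for Et2HOBA. All 10 endothelial markers examined were listed, from 5936 reads of Erg to 78258 reads of Tie1 in control, and their summed normalized count was 361528.8 in control, 230971.6 after glucose oxidase and 209337.0 in the Et2HOBA library. The markers did not move alike. Cdh5, with 55360, 45034 and 63665 reads in the 3 libraries, was the only one with more reads in the Et2HOBA library than in control. Pecam1 had 37351, 26919 and 29562, while Kdr had 61640, 27584 and 24227 and Vwf had 46607, 21567 and 12545. Among markers of other cell types, 6 of 7 smooth muscle genes were listed, with summed normalized counts of 4863.5, 3722.9 and 3943.7. Nearly all of this was Smtn with 4970, 3517 and 3996 reads, while Myh11 had 19, 35 and 73 and Acta2, Tagln, Des and Lmod1 had 1 to 18. The fibroblast receptor gene Pdgfra had 107 reads in control and 1325 and 2821 in the treated libraries, and Pdgfrb had 21, 43 and 71. Reads are given in this order, control, glucose oxidase, Et2HOBA, throughout. Of 4 lymphatic markers Prox1 and Pdpn were not analysed here, Lyve1 had 11828, 22417 and 33226 reads and Flt4 had 7071, 6084 and 7796, with summed normalized counts of 18313.3, 29523.5 and 39496.9. The platelet markers Pf4 and Gp9 summed to 455.4, 208.2 and 235.9. The other 3 fibroblast markers and all 5 epithelial markers were not analysed here. With 1 library per group there is no replicate check and no test between conditions. Each 95% interval below is an exact Clopper-Pearson interval from the read numbers of one gene in a pair of libraries. It takes in counting error alone, so it speaks of those libraries and not of the conditions. In bulk RNA, fewer cells of a type and less RNA per cell cannot be told apart.

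Counts were divided by a size factor per library (normalized counts). A chain was counted as higher or lower where the log2 ratio of normalized counts, with 10 added to each, was 1 or more in size, which is a difference of at least 2-fold. After glucose oxidase, 13 of the 61 chains passed this limit, 8 higher and 5 lower than control. Of the 13285 protein-coding genes 9.3% passed, 4.53% higher and 4.76% lower, and of all listed genes 12.7%, 4.07% higher and 8.6% lower. In the Et2HOBA library 18 chains passed, 9 higher and 9 lower than control. The background was 16.6% of protein-coding genes, 7.33% higher and 9.3% lower, and 14.7% of all genes, 6.66% higher and 8.04% lower. Both comparisons use the same control library. Between the treated libraries 4 chains passed, all 4 lower with Et2HOBA. There the background was 3.32% of protein-coding genes, 0.971% higher and 2.35% lower, and 8.55% of all genes, 6.39% higher and 2.15% lower. By family, the number past the limit was 4 of 28 collagens, 3 of 11 laminins and 6 of 22 integrins after glucose oxidase, and 4, 5 and 9 in the Et2HOBA library. The median log2 ratio over all chains was 0.13 after glucose oxidase, -0.05 in the Et2HOBA library and -0.06 between the treated libraries, and over protein-coding genes it was 0.04, 0.00 and -0.02. Of the chains, 53 had a mean normalized count of 10 or more, namely 22 collagens, 9 laminins and 22 integrins. The counting interval included equal levels for 11 collagens, 2 laminins and 1 integrin after glucose oxidase, and for 10, 2 and 1 in the Et2HOBA library.

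**Figure D1:**
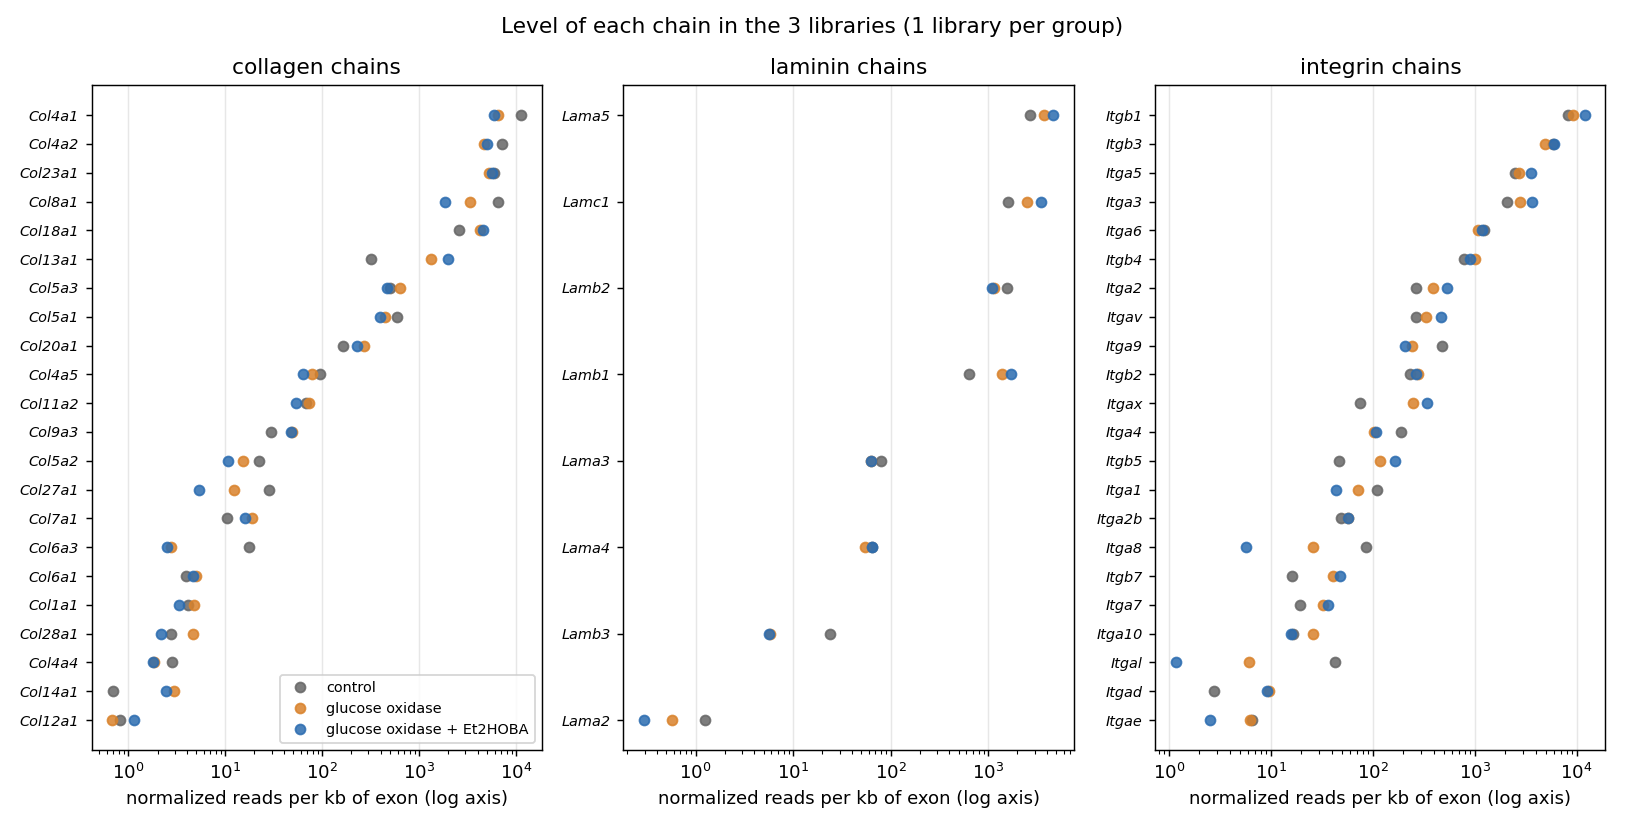
Normalized reads per kb of exon (log axis) of each collagen, laminin and integrin chain with a mean normalized count of 10 or more, as 1 point for each of the 3 libraries. Col4a1 leads the collagens, Lama5 the laminins and Itgb1 the integrins, and the points of Col13a1, Itga8 and Itgal lie far apart. One laminin chain is not drawn.

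Stretches of genome before the start of chains that lead the results below are shown first, so that chains on opposite sides of control can be set side by side. They come from RefSeq on build GRCm38.p6, which had a window of 300 bases, 250 before and 50 after the start, for 40 of the 61 chains (44 windows). Each stretch is given 5′ to 3′ on the strand of the gene and ends where the first annotated exon begins. Capitals mark matches, on either strand, to 6 motifs. They are the CCAAT box with the letters CCAAT, the GC box with GGGCGG, the TATA box with TATAAA and the AP-1 element with TGANTCA. The others are the core of the antioxidant response element, written TGACNNNGC, and the ATF4 part of the amino acid response element, written TGATGNAA. The first bases of the AP-1 element and of the antioxidant core can overlap. The positions are chr10:61979109-61979358 (minus strand) for Col13a1, chr16:57754738-57754987 (minus strand) for Col8a1, chr2:180225860-180226109 (minus strand) for Lama5, chr12:31265043-31265233 (plus strand) for Lamb1, chr9:108479612-108479735 (plus strand) for Lamb2 and chr7:128129300-128129546 (plus strand) for Itgax. Read counts of Col13a1, Lama5, Lamb1 and Itgax were higher in both treated libraries than in control, and those of Col8a1 and Lamb2 were lower.
Col13a1: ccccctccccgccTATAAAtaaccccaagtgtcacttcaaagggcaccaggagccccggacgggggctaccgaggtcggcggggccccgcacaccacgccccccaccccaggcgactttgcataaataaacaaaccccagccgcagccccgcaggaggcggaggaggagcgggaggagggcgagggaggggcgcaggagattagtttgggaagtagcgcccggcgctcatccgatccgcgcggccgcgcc
Col8a1: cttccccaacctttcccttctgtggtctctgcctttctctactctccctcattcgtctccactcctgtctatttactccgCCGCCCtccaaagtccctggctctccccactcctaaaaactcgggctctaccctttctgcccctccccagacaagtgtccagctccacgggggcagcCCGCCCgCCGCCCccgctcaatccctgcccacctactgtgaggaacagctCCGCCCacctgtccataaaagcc
Lama5: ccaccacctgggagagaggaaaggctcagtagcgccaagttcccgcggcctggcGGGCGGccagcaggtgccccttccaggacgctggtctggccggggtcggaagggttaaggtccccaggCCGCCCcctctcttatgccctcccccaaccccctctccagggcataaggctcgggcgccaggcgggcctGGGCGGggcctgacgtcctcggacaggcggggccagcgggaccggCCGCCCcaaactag
Lamb1: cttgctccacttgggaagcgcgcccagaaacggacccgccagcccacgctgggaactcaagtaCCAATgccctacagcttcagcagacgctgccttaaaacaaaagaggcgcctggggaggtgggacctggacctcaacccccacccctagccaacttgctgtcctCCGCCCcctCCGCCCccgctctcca
Lamb2: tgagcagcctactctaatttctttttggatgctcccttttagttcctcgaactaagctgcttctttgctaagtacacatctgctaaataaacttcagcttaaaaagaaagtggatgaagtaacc
Itgax: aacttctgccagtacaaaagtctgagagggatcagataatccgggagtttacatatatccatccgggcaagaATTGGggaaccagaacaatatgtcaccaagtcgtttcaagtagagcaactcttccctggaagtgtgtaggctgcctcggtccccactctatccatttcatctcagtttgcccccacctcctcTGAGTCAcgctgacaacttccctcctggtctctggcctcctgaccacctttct

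The stretches of Col8a1 and Lama5 hold 4 GC boxes each, although the 2 genes lay on opposite sides of control. The Lamb1 stretch holds 2 GC boxes and 1 CCAAT box and the Lamb2 stretch none of the 6 motifs. Itgax has 1 AP-1 element and 1 CCAAT box, and Col13a1 has 1 TATA box far from the start. Over the 44 windows of chains, 56.8% held a GC box, against 35.7% of all 32851 windows in the table. For the CCAAT box the shares were 25.0% and 37.4%, for the TATA box 9.09% and 13.6%, for the AP-1 element 9.09% and 7.81%, and for the antioxidant response element core 15.9% and 12.4%. The ATF4 motif was in none of the 44 windows and in 3.97% of all windows. A match is a run of letters and no evidence of binding. Col4a1 and Col4a2 lie head to head, on opposite strands, and their annotated 5′ ends overlap by 22 bases at chr8:11312805-11312826, shown on the plus strand, the strand of Col4a2, with its GC box in capitals.
Col4a1 and Col4a2 overlap: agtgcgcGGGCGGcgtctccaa

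Among collagens, the most abundant chains were lower in the treated libraries, while a transmembrane collagen and a collagen of the multiplexin type were higher. Per kb of exon the control library held 11349 normalized reads of Col4a1, 7230 of Col4a2, 6432 of Col8a1, 5976 of Col23a1 and 2566 of Col18a1. Collagens took 0.712% of all reads in control, 0.505% after glucose oxidase and 0.45% in the Et2HOBA library. Col4a1 (chromosome 8, 11198423 to 11312826), which encodes the alpha 1 chain of type IV collagen, gave 87418, 46463 and 45611 reads, so both treated libraries lay well below control. It stood at 0.568 of the control level after glucose oxidase (95% interval 0.562 to 0.575) and 0.518 in the Et2HOBA library (0.513 to 0.524). Col4a2 (chromosome 8, 11312805 to 11449287), its partner in the same trimer, had 49387, 30159 and 34200 reads, or 0.653 (0.644 to 0.662) and 0.688 (0.679 to 0.698) of control. Neither chain passed the limit of 1 log2 unit, although both were below control in each treated library by more than counting error. Under total-count scaling Col4a1 passed it in the Et2HOBA library, at a log2 ratio of -1.10 in place of -0.95. The 2 genes did not keep a fixed ratio. Within each library, which needs no scaling, Col4a1 held 63.9% of the reads of the pair in control (63.6 to 64.2), 60.6% after glucose oxidase (60.3 to 61.0) and 57.1% in the Et2HOBA library (56.8 to 57.5). The third type IV chain with more than 100 reads, Col4a5, had 654, 513 and 441 reads, and Col4a3 and Col4a4 had 5 to 31.

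Col8a1 (chromosome 16, 57624258 to 57754737), the alpha 1 chain of the short network collagen VIII that vascular cells make, lay farthest below control among the 5 chains with the most reads per kb. Control held 51992 reads, against 25363 and 15151 in the treated libraries. The level was 0.521 of control after glucose oxidase (0.514 to 0.529), where it missed the limit with a log2 ratio of -0.94, and 0.290 in the Et2HOBA library (0.284 to 0.295), where it passed. Col18a1 (chromosome 10, 77052178 to 77166548), whose C-terminal part is released as endostatin, went the other way, with 18589, 28969 and 33111 reads. This was 1.67-fold (1.64 to 1.70) and 1.77-fold (1.74 to 1.80) the control level, below the limit in both. As a share of the reads of these 2 genes, which only restates their opposite directions, Col8a1 held 73.7% in control, 46.7% after glucose oxidase and 31.4% in the Et2HOBA library.

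Col13a1 (chromosome 10, 61838236 to 61979108) encodes a collagen that spans the plasma membrane and is found at adhesion sites. Its reads were 1497, 5888 and 9506 in the order of the libraries, each step larger than counting error. The ratios to control were 4.20 (3.97 to 4.45) and 6.31 (5.97 to 6.67), and the Et2HOBA library was 1.5-fold (1.45 to 1.55) the glucose oxidase library. In the authors' deposited tables its log2 differences from control were 1.94 and 2.60. It was the one collagen higher past the limit in both comparisons with control. The other transmembrane collagen with many reads, Col23a1, had 35375, 28944 and 33950 reads, with log2 ratios of -0.19 and -0.07.

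Fibrillar collagens, which form the banded fibres of connective tissue, were low in these cells apart from 2 chains of type V. Col1a1 had 28, 30 and 23 reads and Col3a1 had 2, 12 and 0. Col5a1 had 5240, 3671 and 3453 reads and Col5a3 had 3530, 4129 and 3315. After glucose oxidase 4 of the 8 fibrillar chains had log2 ratios above 0 and 4 below 0. In the Et2HOBA library all 8 were below 0, from -0.10 to -2.24, where 6630 of 13285 protein-coding genes were below 0. The intervals of Col1a1, Col3a1 and Col11a1 included equal levels, and only Col27a1 passed the limit. Col27a1 had 380, 154 and 73 reads, or 0.433 (0.357 to 0.524) and 0.191 (0.146 to 0.246) of control. In the authors' deposited tables its log2 differences were -0.74, within the limit, and -1.74. Between the treated libraries it was 0.441-fold (0.329 to 0.586), and it and Col3a1, with 12 and 0 reads, were the 2 collagens past the limit there. Col6a3, of the beaded filament collagen VI, had 216, 32 and 31 reads. At log2 ratios of -2.35 and -2.46 it was the lowest collagen against control, past the limit in both comparisons. In the authors' deposited tables its log2 differences were -1.11 and -1.70. Col6a3 lies under the count set for naming genes and was picked after its values were seen. Its partners Col6a1 and Col6a2 had 2 to 21 reads. Col14a1, with 5, 20 and 18 reads, was with Col13a1 the other collagen higher past the limit after glucose oxidase. It passed on few reads and not in the authors' deposited table, where it was 0.33.

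Of the remaining collagens, the fibril-associated chains Col20a1, with 868, 1343 and 1210 reads, and Col9a3, with 118, 183 and 189, were above control in both treated libraries but within the limit. Col7a1, the anchoring fibril collagen, had 109, 186 and 171 reads. The fibrillar chains Col5a2, with 220, 142 and 107 reads, and Col11a2, with 484, 483 and 380, were within the limit as well. Col5a2 was only just within it in the Et2HOBA library, at a log2 ratio of -0.98, and passed it there under total-count scaling. Col11a1, Col12a1, Col17a1, Col22a1 and Col28a1 had 1 to 22 reads in every library, too few to place.

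**Figure D2:**
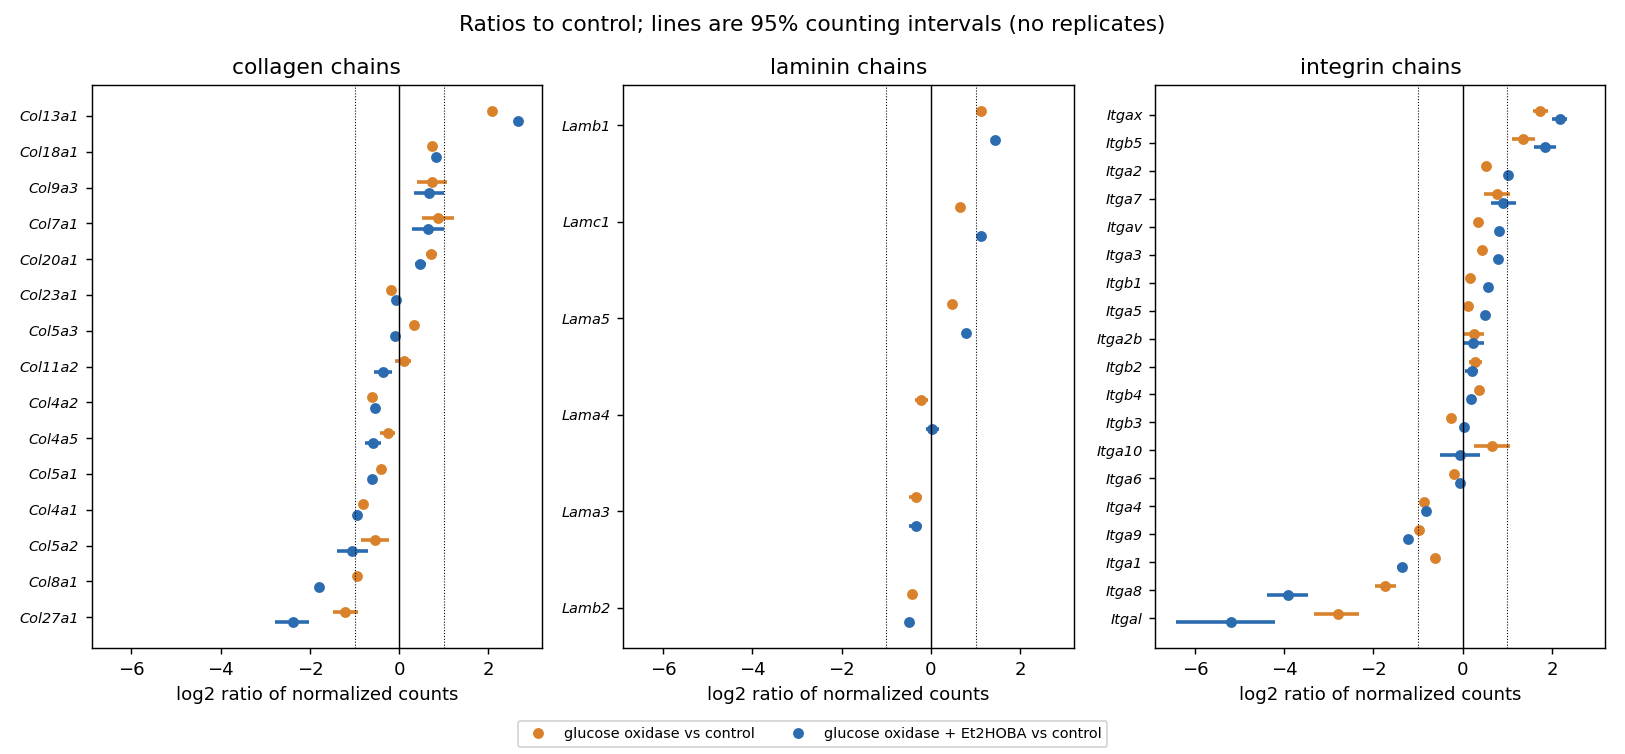
Log2 ratio of normalized counts to control, without a pseudocount, for each chain with a mean normalized count of 100 or more: orange points for glucose oxidase, blue for glucose oxidase plus Et2HOBA, lines for the 95% counting interval, and dotted lines at 1 and -1. Of the chains drawn, Col13a1, Lamb1 and Itgax lie farthest to the right in their families and Col27a1, Lamb2 and Itgal farthest to the left. One laminin chain is not drawn.

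Among laminins, the 3 chains of laminin-511 (alpha 5, beta 1, gamma 1), a trimer of vascular basement membranes, were all higher in both treated libraries than in control. The share of all reads in laminin genes was 0.177% in control, 0.237% after glucose oxidase and 0.278% in the Et2HOBA library. Lama5 (chromosome 2, 180176373 to 180225859), the alpha 5 chain, had 31899, 41050 and 55179 reads, or 1.38-fold (1.36 to 1.40) and 1.72-fold (1.70 to 1.74) the control level, below the limit. Lamb1 (chromosome 12, 31265234 to 31329644), the beta 1 chain, had 6517, 13302 and 17837 reads, or 2.18-fold (2.12 to 2.25) and 2.72-fold (2.64 to 2.80), past the limit in both. Lamc1 (chromosome 1, 153218922 to 153332786), the gamma 1 chain, had 13703, 20266 and 29814 reads, or 1.58-fold (1.55 to 1.62) and 2.16-fold (2.12 to 2.21). In the Et2HOBA library Lamc1 passed the limit at a log2 ratio of 1.11, and no longer passed under total-count scaling, at 0.96. For each of the 3 chains the control library was lowest and the Et2HOBA library highest. Between the treated libraries the ratios were 1.25 for Lama5, 1.25 for Lamb1 and 1.37 for Lamc1, none past the limit.

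Lamb2 (chromosome 9, 108479736 to 108490530), the beta 2 chain that takes the place of beta 1 in laminin-521, lay on the other side of control, with 9804, 6798 and 6973 reads. This was 0.741 (0.719 to 0.765) and 0.707 (0.685 to 0.729) of control. Of the reads of both beta chains, Lamb1 took 39.9% in control (39.2 to 40.7), 66.2% after glucose oxidase (65.5 to 66.8) and 71.9% in the Et2HOBA library (71.3 to 72.5). Per kb of exon, Lamb2 was above Lamb1 in control, at 1562 against 637 normalized reads, and below it in the Et2HOBA library, at 1104 against 1732. Lama4, the other main alpha chain of vessels, had 798, 643 and 819 reads, and its interval against control included equal levels in the Et2HOBA library, at 1.02-fold (0.924 to 1.13). Lama5 took 94.9%, 96.9% and 97.3% of the reads of the 5 alpha chains in the 3 libraries.

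Among the other laminin chains, Lama3, an alpha chain best known from the skin, had 890, 656 and 708 reads, and the beta chain Lamb3 had 163, 37 and 39. Lamb3, at log2 ratios of -1.80 and -1.82, was lower past the limit in both comparisons and, having too few reads for the naming rule, was picked after its values were seen. In the authors' deposited tables Lamb3 stood at -0.83, within the limit, and -1.24. Lama2, with 21, 9 and 5 reads, passed the limit in the Et2HOBA library on few reads, and was within it at -0.55 in the authors' deposited table. Lama1 and Lamc3 had 0 to 9 reads.

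Among integrins, the most abundant subunits were within 2-fold of control, while the subunits that passed the limit were mostly less abundant ones. The control library held 8245 normalized reads per kb of Itgb1, 5869 of Itgb3, 2507 of Itga5, 2099 of Itga3 and 1237 of Itga6. Itgb1 (chromosome 8, 128685654 to 128733200), the beta subunit shared by most matrix receptors, had 34723, 35997 and 51380 reads. The ratios to control were 1.11 (1.09 to 1.12) and 1.47 (1.45 to 1.49). Itga5, which with Itgb1 forms the fibronectin receptor, had 12765, 13075 and 18215 reads, or 1.09-fold (1.07 to 1.12) and 1.42-fold (1.39 to 1.45). Itga3, a laminin-511 receptor with Itgb1, had 12370, 15551 and 21538 reads, or 1.34-fold and 1.73-fold. For these 3 subunits the Et2HOBA library was highest, at 1.29 to 1.33 times the glucose oxidase library. Itga6, the laminin-binding partner of Itgb1 and Itgb4, had 11518, 9416 and 11066 reads, or 0.874 and 0.955 of control, and Itgb4 had 5688, 6789 and 6547.

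Itgb3, the beta subunit of the vitronectin receptor alpha v beta 3, had 35742, 27821 and 36862 reads, and Itgb5, which also pairs with alpha v, had 170, 407 and 612. The ratio to control in the Et2HOBA library was 1.02 (1.01 to 1.04) for Itgb3 and 3.58 (3.01 to 4.26) for Itgb5. Itgb5 (chromosome 16, 33829665 to 33949338) was past the limit in both comparisons, though at 0.85 and 1.52 in the authors' deposited tables the first was within it. It held only 0.473%, 1.44% and 1.63% of the reads of the 2 genes. It shares 8.17% of the 50-base stretches of its longest transcript with 1 other annotated gene. Itgav, their alpha partner, had 2949, 3471 and 5214 reads, or 1.26-fold (1.20 to 1.32) and 1.76-fold (1.68 to 1.84). Of the reads of the 6 beta subunits, Itgb1 took 45.0% in control, between 49.7% and 50.4% after glucose oxidase and 53.3% in the Et2HOBA library.

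The collagen receptor subunits lay on opposite sides of control. Itga1 and Itga2 both pair with Itgb1, and alpha 1 beta 1 prefers type IV collagen while alpha 2 beta 1 prefers fibrillar collagens. Itga1 had 2131, 1303 and 837 reads, or 0.654 (0.610 to 0.701) and 0.390 (0.360 to 0.423) of control. Its exons overlap the gene Gm49395 on the same strand over 685 bases, and 5.5% of its 50-base stretches are shared. Itga2 had 1975, 2664 and 4008 reads, or 1.44-fold (1.36 to 1.53) and 2.02-fold (1.91 to 2.13). Each passed the limit in the Et2HOBA library, but Itga2 did so only just, at a log2 ratio of 1.01. It was within the limit at 0.86 under total-count scaling and at 0.98 in the authors' deposited table. Itga2 took 48.1% of the reads of the pair in control (46.6 to 49.6), 67.2% after glucose oxidase (65.7 to 68.6) and 82.7% in the Et2HOBA library (81.6 to 83.8).

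**Figure D3:**
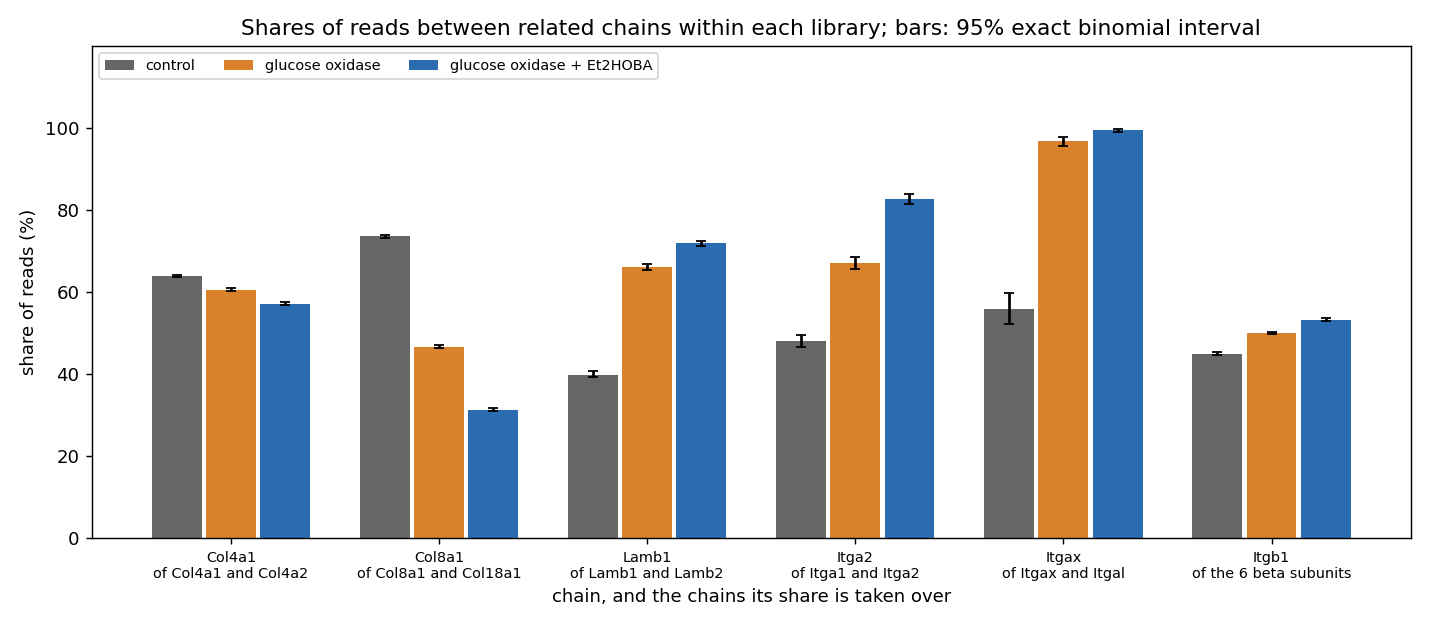
Share of reads (%) that one chain takes among the chains named under each group of bars, in control (grey), glucose oxidase (orange) and glucose oxidase plus Et2HOBA (blue), with 95% exact binomial intervals. Lamb1 goes from 39.9% in control to 71.9% with Et2HOBA, Itga2 from 48.1% to 82.7% and Col8a1 from 73.7% to 31.4%.

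Lower counts were found for Itga8, Itga9 and Itga4. Itga8 (chromosome 2, 12106632 to 12301922), an RGD-binding subunit that pairs with Itgb1 and binds nephronectin, had 658, 185 and 44 reads. This was 0.301 (0.254 to 0.354) and 0.0664 (0.0478 to 0.0902) of control, and 0.221 (0.155 to 0.309) of the glucose oxidase level. Its exons overlap an antisense gene, E030013I19Rik, over 372 bases. Npnt, the gene of its ligand nephronectin, had 3274, 1215 and 940 reads. Itga9, which lymphatic and venous valves need, had 3837, 1813 and 1646 reads, or 0.505 (0.477 to 0.534) and 0.426 (0.402 to 0.452) of control, the second past the limit. Under total-count scaling its log2 ratio after glucose oxidase also passed, at -1.04 in place of -0.98. Itga4, with 2753, 1409 and 1560 reads, stayed short of the limit at log2 ratios of -0.87 and -0.82, and its exons overlap those of Cerkl on the other strand. Of the other alpha subunits, Itga7, Itga2b, Itga10 and Itgae were within the limit in each comparison. Itga7, a laminin receptor of muscle, had 161, 254 and 305 reads, and Itga2b, of the platelet fibrinogen receptor, had 274, 304 and 325. The collagen-binding Itga10 had 88, 129 and 85 reads, with 32.01% of its 50-base stretches shared, and Itgae had 31, 28 and 12.

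The integrins named for leukocytes lay on opposite sides of control. Itgal (chromosome 7, 127296260 to 127335138), the alpha subunit of LFA-1, had 292, 39 and 8 reads, or 0.143 (0.0995 to 0.200) and 0.0272 (0.0116 to 0.0544) of control. In the authors' deposited tables its log2 differences were -1.30 and -2.67. Itgax (chromosome 7, 128129547 to 128150657), known as CD11c, had 372, 1163 and 1684 reads, or 3.34-fold (2.97 to 3.77) and 4.50-fold (4.02 to 5.05). Their common beta subunit Itgb2 had 728, 826 and 842 reads, with log2 ratios of 0.27 and 0.20. Itgax shares 9.61% of its 50-base stretches with its neighbour Itgad, which had 13, 42 and 43 reads and passed the limit in both comparisons, but in neither of the authors' deposited tables, at 0.42 and 0.65. The beta 7 subunit Itgb7 was higher past the limit in both comparisons, with 46, 109 and 137 reads, but in the authors' deposited tables it was within the limit in both, at 0.52 and 0.93. Of 6 leukocyte and macrophage markers, 4 were listed, with a summed normalized count of 8199.8, 17911.4 and 27119.8, nearly all from Cd68 with 8215, 17067 and 27799 reads. Csf1r had 6, 12 and 10 reads, Lyz2 had 186, 76 and 86, and Cd14 had 55, 136 and 272. The part of other cells in the levels of Itgal and Itgax was not tested.

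Between the treated libraries Itgal, at 0.191 of the glucose oxidase level (0.0770 to 0.414), and Itga8 were the 2 integrins past the limit. No laminin passed it. Of the 28 collagens, 21 had a log2 ratio below 0 there, with a median of -0.20, against 7074 of 13285 protein-coding genes and a median of -0.02. The medians of laminins and integrins were 0.13 and 0.08. Of the 53 chains with a mean normalized count of 10 or more, 15 (28.3%) were lowest in control and highest in the Et2HOBA library and 16 (30.2%) the reverse. Over 12328 protein-coding genes at that level the shares were 33.5% and 31.8%. By family, the numbers were 2 and 8 of 22 collagens, 4 and 3 of 9 laminins, and 9 and 5 of 22 integrins.

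Genes that work with these chains were described in 4 lists. Of 18 listed basement membrane partners and elastic matrix genes, 1 was higher and 7 were lower past the limit after glucose oxidase, and 1 was higher and 9 were lower in the Et2HOBA library, with medians of -0.77 and -1.12. These are 44.4% and 55.6% of the list, against the 9.3% and 16.6% of protein-coding genes given above. The lower genes were Npnt, Fbln2, Fbln5, Eln, Fbn1, Postn and Tgfbi in both comparisons, and also Emilin1 and Mmrn2 in the Et2HOBA library. Hspg2, Agrn, Sparc, Tinagl1, Ntn4 and Fn1 were within the limit in both, as were Nid2 and Efemp2 on few reads. The higher one was Nid1, which encodes nidogen-1, the linker that binds laminin gamma 1 to type IV collagen. Control held 18051 reads of it and the treated libraries 130867 and 200647. The ratio to control was 7.75 (7.63 to 7.87) after glucose oxidase and between 10.9 and 11.2 in the Et2HOBA library, on 3.67% of shared 50-base stretches. Its relative Nid2 had 5, 1 and 0 reads. Perlecan (Hspg2), a proteoglycan of the same membrane, had 18028, 10397 and 12470 reads, and agrin (Agrn) had 9383, 6107 and 5134. Among the lower genes, elastin (Eln) had 1636, 238 and 140 reads, fibulin-2 (Fbln2) had 1057, 238 and 90, and Tgfbi had 968, 350 and 336. Fibronectin (Fn1), the ligand of alpha 5 beta 1, had 48488, 38589 and 49411 reads.

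Of 27 listed genes that fold, modify, secrete or cross-link collagen, 1 passed the limit after glucose oxidase and 4 in the Et2HOBA library, 2 in each direction. At 3.7% and 14.8% of the list this is no more than the 9.3% and 16.6% of protein-coding genes. The prolyl hydroxylase subunit P4ha1 had 3692, 5562 and 8139 reads and the lysyl oxidase relative Loxl4 had 299, 508 and 836. The procollagen C-proteinase gene Tll1 had 3025, 808 and 531 reads and its enhancer Pcolce had 333, 154 and 117. The collagen chaperone Serpinh1 had 12108, 15996 and 18617 reads. The medians were -0.05 in both comparisons. Of 32 adaptors and kinases that bind integrin tails or act after them, 1 was lower past the limit after glucose oxidase, and 2 were higher and 1 lower in the Et2HOBA library, with medians of -0.07 and 0.00. These are 3.12% and 9.38% of the list, below the shares of protein-coding genes. The lower one after glucose oxidase was Ilk, with 77, 30 and 49 reads and 86.72% of its 50-base stretches shared. Past the limit in the Et2HOBA library alone, Zyx had 3535, 5958 and 8547 reads, Src had 4368, 6191 and 9092, and Kank2 had 6206, 4103 and 3005. Of 20 other matrix receptors and tetraspanins, 2 were higher and 1 lower after glucose oxidase and 2 were higher and 2 lower in the Et2HOBA library. This makes 3 and 4 of 20, beside the 9.3% and 16.6% of protein-coding genes. The hyaluronan receptor Cd44 had 999, 2030 and 5019 reads, the scavenger receptor Cd36 had 2964, 897 and 1093, and the tetraspanin Cd82 had 428, 205 and 155. The laminin receptor Bcam, which binds alpha 5, had log2 ratios of -0.48 and -0.67.

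**Figure D4:**
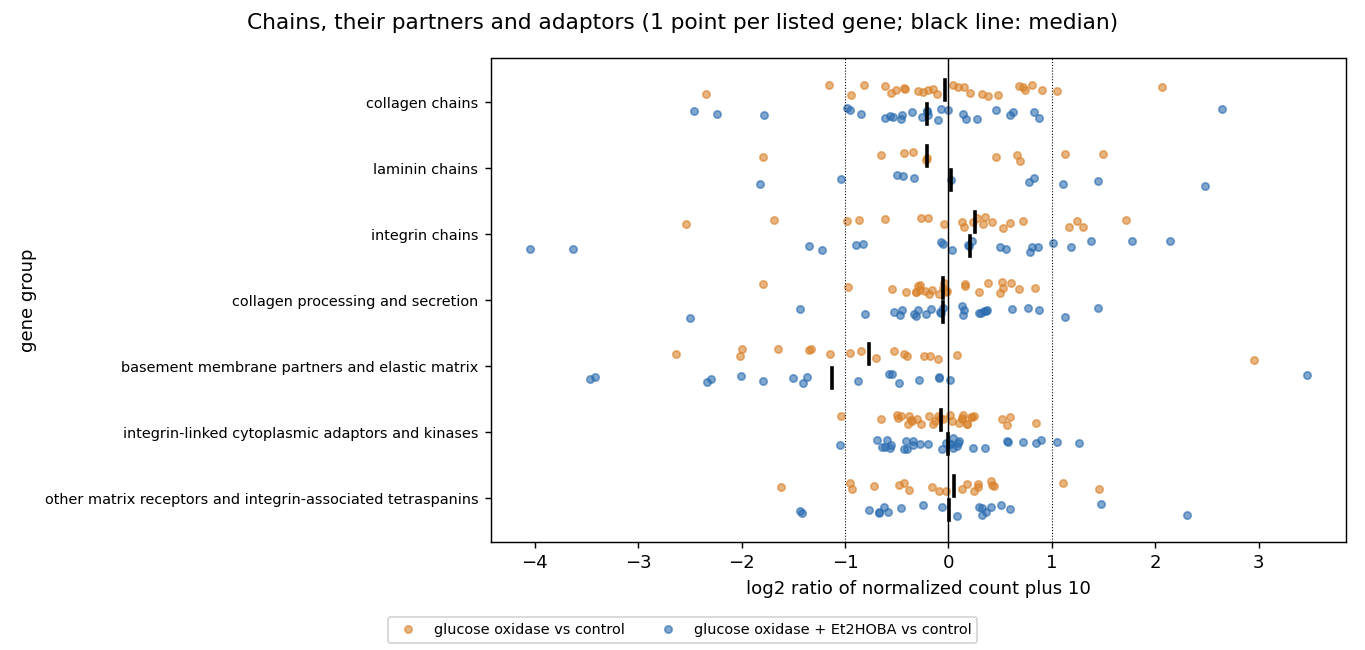
Log2 ratio of normalized count plus 10 against control for each listed gene of the 3 families and the 4 lists, orange for glucose oxidase and blue for glucose oxidase plus Et2HOBA, with black lines at the medians and dotted lines at 1 and -1. The partners and elastic matrix genes have medians of -0.77 and -1.12, with Nid1 as their one point far above 0, while the medians of the other groups lie between -0.21 and 0.26.

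The 4 genes found by the name pattern that are not chains all lay within the limit. Itgb1bp1, whose protein binds the tail of beta 1 and restrains talin, had 1652, 1830 and 2395 reads. Itgb3bp, a centromere protein despite its name, had 391, 257 and 240. The ceramide transfer protein gene Col4a3bp had 2391, 2190 and 2703 reads, and Itgb1bp2 had 1, 8 and 9.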

How the data were processed

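RNA of 3 groups, each with 1 library, was read from deposited tables. The authors used STAR and featureCounts with build mm10, per the submitters' processing notes; versions, annotation and strand setting are not given in the sources used here. The deposited raw read counts cover the control and Et2HOBA libraries. The authors also deposited log-normalized values and their log2 difference, per the file headers, and a log2 difference of glucose oxidase minus control in a table with no header. The log-normalized values have the form asinh(sqrt(a × count)) on a log2 scale. Solving this for glucose oxidase from the control counts returned reads that lay 0.01 or less from an integer in 100% of the 18275 genes that matched by symbol; with 1 read added to each control count the share was 3.305%. Another 12 genes were placed by whole reads. The solution was tested on simulated data.

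Size factors by the median of ratios were 1.03, 0.965 and 1.04. No count model was fitted, since 1 library per group gives no spread. Gene IDs of 17878 genes had the same version and position in GENCODE M21 (GRCm38), which gave exon lengths and shared 50-base stretches. Python 3.11.15, numpy 2.4.6, pandas 2.3.3 and scipy 1.17.1 were used. The members, lists, markers and limits were chosen with earlier results of these data known. The naming rule took chains with a mean normalized count of 100 or more that passed 1 log2 unit in some comparison, and the main subunits of the vascular basement membrane and its receptors, of which Col15a1 was not analysed here. One laminin chain is part of the family counts, medians and totals but is not reported here by itself. From each list it took at most 4 genes in each direction by the same limits. Other genes given with reads were added, after their values were seen, to complete a trimer, pair or group. Alternatives were a pseudocount of 1, total-count scaling, a limit of 0.5, a filter on low counts, the scale of the deposited differences and the removal of genes with shared stretches.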

Additional observations from a re-analysis of the deposited data

How the results depend on the processing

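Total-count scaling left all 9 counts of chains past the limit within 1.5 times; it moved the median of all genes by up to -0.13 and gave the opposite sign, at sizes near 0, to Col18a1 and Col4a2 between the treated libraries and to Itgb3 and Lama4 in the Et2HOBA library against control. It also put Col4a1 (-1.10), Col5a2, Itga2 (0.86) and Lamc1 (0.96) in the Et2HOBA library, and Itga9 (-1.04) after glucose oxidase, on the other side of the limit. Of 78 log2 ratios of named chains, none past the limit changed sign under it or with a pseudocount of 1. Total-count scaling still shifted these ratios by -0.04 to -0.15, and 51 of the 78 moved outside their counting interval. Itgb1 in the Et2HOBA library, for example, stood at 0.40 in place of 0.56. The narrow intervals therefore do not take in the choice of scaling. With a limit of 0.5 the counts for collagens, laminins and integrins were 14, 6 and 12 after glucose oxidase, 14, 8 and 16 in the Et2HOBA library, and 8, 1 and 5 between the treated libraries. A pseudocount of 1, which lets genes with few reads pass, gave 5 laminins after glucose oxidase, 9 collagens in the Et2HOBA library, and 6 collagens and 1 laminin between the treated libraries. Where the authors' deposited differences were used, glucose oxidase gave 2 collagens, 1 laminin and 3 integrins. Without genes that share a 50-base stretch, which leaves 11 integrins and 20 collagens, 2 integrins passed after glucose oxidase, 4 in the Et2HOBA library, and 1 collagen and 1 integrin between the treated libraries. A mean normalized count of 10 or more left 1 collagen between the treated libraries. The deposited table of that comparison lists no chain, so its scale was not run there. No paired analysis was possible because each group has 1 library. With 1 library per group, the spread between cultures was not measured.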
